A study of Mus musculus with 15 samples.

Results

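Interferon-induced genes are the genes that cells switch on after interferon signals, and 43 of them were followed here in the cecum of mice whose gut microbes had been depleted with antibiotics. The 43 were picked by gene symbol as known interferon-induced genes, out of 45808 gene rows in the table of expression values. They fall into 5 transcription factors, 5 sensors of viral nucleic acid, 5 oligoadenylate synthetases, 3 genes of ISG15 conjugation, 17 antiviral effectors and 8 interferon-inducible GTPases. Ceca of 7 mice with antibiotic-induced microbiome depletion (AIMD mice) and 8 vehicle-treated mice were emptied, and their poly-A RNA was sequenced. All 15 were male wild-type C57BL/6 mice, labelled as 20 weeks old. AIMD mice were gavaged 2 times a day for 30 days with ampicillin, vancomycin, metronidazole, neomycin and the antifungal amphotericin B, and vehicle-treated mice received water in the same way. The whole organ wall was sampled, so that epithelial, immune and muscle cells were measured together, and in such RNA fewer cells of a type and less RNA per cell cannot be told apart. The time of sacrifice and the cage of each mouse are not in the labels used here.

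Interferons are secreted proteins that signal through receptors on nearly every cell. Type I interferons (alpha and beta) and type III interferons (lambda), the latter acting mostly on epithelium, lead through the kinases Jak1 and Tyk2 to a complex that contains Stat2 and Irf9 and binds a DNA element called the interferon-stimulated response element (ISRE). Interferon gamma, the type II interferon, acts through Jak1 and Jak2 and on another element, the gamma-activated site (GAS). In the gut, a low level of this signalling is known to be present without infection, and gut microbes are known to contribute to it.

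The letters of these elements are shown first, since many of the genes carry them just before their start. RefSeq windows on GRCm38.p6, from 250 bases before to 50 bases after the annotated start, were at hand for 32 of the 43 genes. The ISRE letters GAAANNGAAA, or TTTCNNTTTC on the other strand, were in a window of 18 of these 32 genes (56.3%), against 3.99% of all 27025 genes with a window and 3.44% of all 32851 windows of that length. The GAS letters TTCNNNGAA, which read the same on both strands, were in 12 of the 32 (37.5%), against 9.55% of all genes with a window and 8.30% of all windows. In 1 gene, Bst2, letters of the 2 kinds overlapped. A match is only a match of letters. The 160 bases before the start are printed, 5′ to 3′ on the strand of the gene and with the ISRE letters in capitals, for 5 genes that were higher in AIMD mice and for Bst2, which was lower.
Isg15: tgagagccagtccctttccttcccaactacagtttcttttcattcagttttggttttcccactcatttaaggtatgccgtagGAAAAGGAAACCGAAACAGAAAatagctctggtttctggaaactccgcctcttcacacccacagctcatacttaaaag
Ifit1: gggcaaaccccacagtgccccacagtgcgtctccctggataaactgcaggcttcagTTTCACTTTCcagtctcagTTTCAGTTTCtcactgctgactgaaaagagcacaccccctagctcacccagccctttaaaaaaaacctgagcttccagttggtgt
Ifit3: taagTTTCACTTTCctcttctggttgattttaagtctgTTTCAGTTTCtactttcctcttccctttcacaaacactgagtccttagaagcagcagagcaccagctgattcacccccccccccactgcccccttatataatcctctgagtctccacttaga
Irgm1: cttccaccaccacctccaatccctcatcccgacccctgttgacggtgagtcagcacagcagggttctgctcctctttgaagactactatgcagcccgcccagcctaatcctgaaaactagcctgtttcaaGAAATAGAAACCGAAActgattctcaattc
Irgm2: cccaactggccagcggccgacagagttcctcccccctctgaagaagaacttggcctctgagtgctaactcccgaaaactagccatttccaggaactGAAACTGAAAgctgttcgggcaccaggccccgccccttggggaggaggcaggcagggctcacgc
Bst2: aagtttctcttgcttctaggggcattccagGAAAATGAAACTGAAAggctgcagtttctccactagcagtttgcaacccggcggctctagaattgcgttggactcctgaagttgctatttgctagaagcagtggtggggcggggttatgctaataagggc
These stretches lie at chr4:156200819-156200978 (minus strand) for Isg15, chr19:34640729-34640888 (plus strand) for Ifit1, chr19:34583369-34583528 (plus strand) for Ifit3, chr11:48871421-48871580 (minus strand) for Irgm1, chr11:58214817-58214976 (plus strand) for Irgm2 and chr8:71537473-71537632 (minus strand) for Bst2. The starts are those of RefSeq, and the GENCODE genes Irgm1 and Irgm2 begin further upstream, so that these 2 stretches lie inside the genes as GENCODE gives them. Isg15 has 3 overlapping matches that begin 78, 72 and 66 bases before its start, and Bst2 has 2 that begin 130 and 124 bases before its start. The ISRE letters were in 6 of 11 windowed genes called higher in AIMD mice, in the 1 gene called lower and in 11 of 19 tested genes that were not called. The GAS letters were in 2 of the 11 called higher and in 9 of the 19 not called.

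The authors deposited FPKM (reads on a gene scaled to its length and to the depth of the library). Values of the 2 groups were compared as log2(FPKM + 0.5) with limma over all 11983 genes that reached an FPKM of 0.5 in at least 7 mice. "Called" below means a Benjamini-Hochberg adjusted p under 0.05 over these 11983 genes. Of the 43 genes, 38 passed this filter, 33 of them in every mouse and 36 in the vehicle-treated mice alone. AIMD mice had between 8702834 and 18166030 reads on genes and vehicle-treated mice between 4379971 and 14446329, so that low genes were measured least well in vehicle-treated mouse 8, the least deep. The mitochondrial share of the reads was 4.27% to 10.9% in AIMD mice and 6.90% to 26.1% in vehicle-treated mice. Its part in the results was not tested.

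Of the 38 tested genes, 14 were called higher in AIMD mice, 1 was called lower and 23 were not called. Over all tested genes, 19.4% were called higher and 16.7% lower. The median log2 fold change was 0.29 over the 38 genes and 0.0062 over all 11983. By role, the genes called higher were 2 of 4 tested oligoadenylate synthetases, 2 of 3 genes of ISG15 conjugation, 7 of 14 tested antiviral effectors, 2 of 7 tested GTPases, 1 of 5 sensors and 0 of 5 transcription factors. Without AIMD mouse 6 the count called higher was 9, where 16.1% of all 11865 genes then tested were. The exact rank-sum test also called 9 of the 38 higher and 1 lower, where it called 17.6% and 14.9% of all tested genes, and limma voom on recovered reads called 14 higher and 1 lower, where it called 19.6% and 17.5%. Bst2 stood at the other end, and it was the only one of the 38 tested genes in which no mouse of one group reached the values of the other, a separation seen in 8.56% of all tested genes (5.27% higher and 3.3% lower). Oasl1 was separated as well without AIMD mouse 7 or vehicle-treated mouse 8, Oasl2 without vehicle-treated mouse 6, and Ifit3 without AIMD mouse 1.

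**Figure D1:**
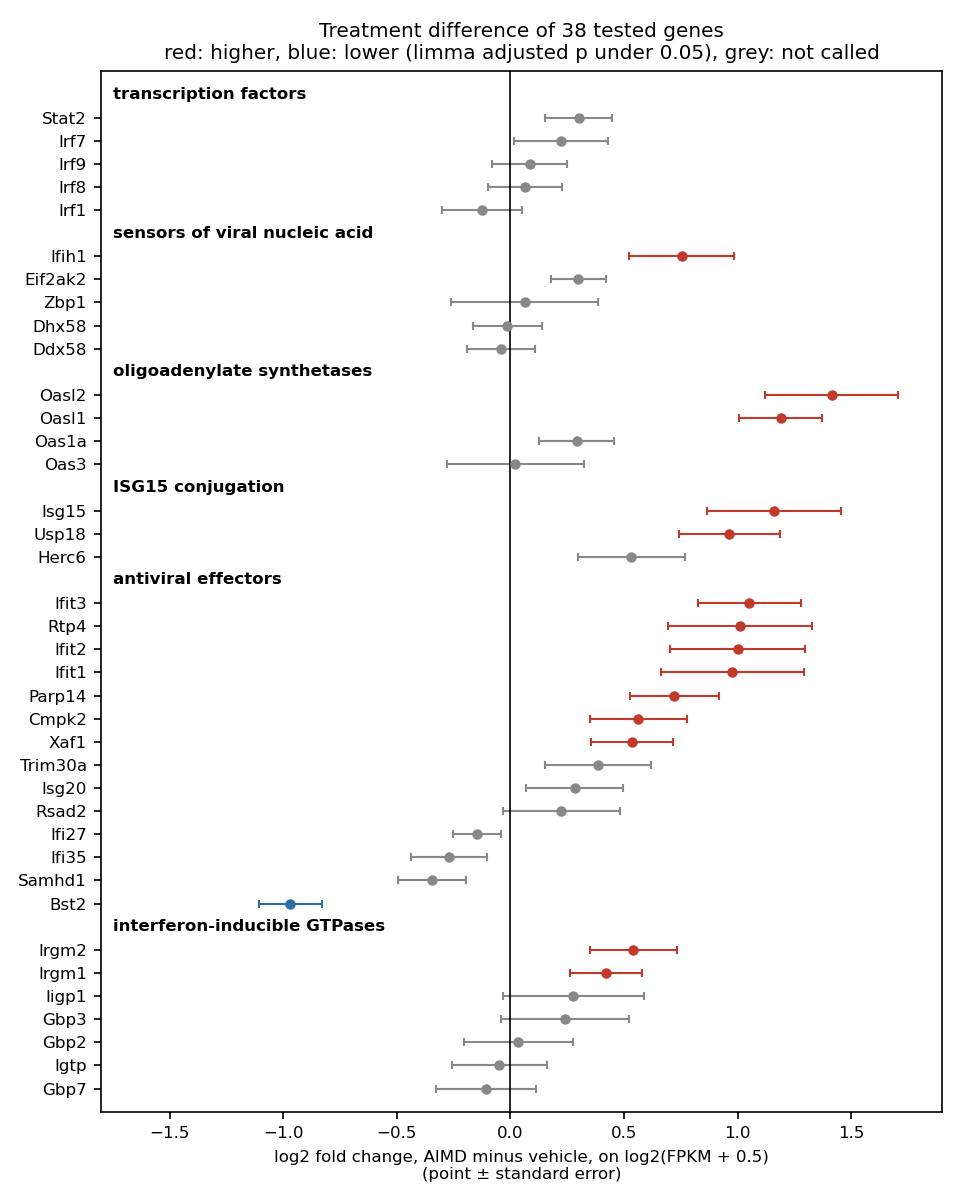
Log2 fold change (AIMD minus vehicle-treated mice, x axis, on the log2(FPKM + 0.5) scale) of the 38 tested interferon-induced genes, grouped by role; points are limma estimates and bars their standard errors. Oasl2, at 1.42, is the highest and Bst2, at −0.97, the lowest, and all 5 transcription factors are grey, that is, not called.

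Oasl1 and Oasl2 are oligoadenylate synthetase-like proteins that carry ubiquitin-like domains, and Oasl1 is known to restrain translation of the Irf7 mRNA. They neighbour each other on chromosome 5 of GRCm38 (Oasl2 at 114896936-114912234 and Oasl1 at 114923240-114937915, both on the plus strand). The FPKM of Oasl1 was 7.92 in the lowest, 12.6 in the median and 18.2 in the highest AIMD mouse, and 3.83, 5.01 and 8.59 in the vehicle-treated mice. In 6 of 7 AIMD mice it was above every vehicle-treated mouse, and AIMD mouse 7 fell among the upper vehicle-treated mice. The means, 13.4 ± 3.34 (SD, n = 7) against 5.61 ± 1.64 (SD, n = 8), gave a log2 fold change of 1.19 (standard error (SE) 0.18, Benjamini-Hochberg adjusted p by limma = 0.000134).

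Oasl2 showed the largest log2 fold change of the 38. Its FPKM ranged from 6.10 over a median of 6.76 to 15.8 in AIMD mice and from 1.23 over 3.03 to 7.83 in vehicle-treated mice. The groups met only through vehicle-treated mouse 6, since the other 7 vehicle-treated mice stayed below the lowest AIMD mouse. The log2 fold change was 1.42 (SE 0.29, adjusted p by limma = 0.00149).

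The Oas enzymes make a product that activates the RNA-degrading RNase L. Oas1a was 16.0 ± 3.67 with AIMD (SD, n = 7) against 12.9 ± 2.56 with vehicle (SD, n = 8), with a log2 fold change of 0.29 (adjusted p by limma = 0.176, and 0.0281 without AIMD mouse 7). Of its 50-base windows, 57.6% also occur in Oas1g, so that reads of these copies could not be separated in full. Oas1g itself, which is not one of the 43, was 7.86 ± 1.64 (SD, n = 7) against 2.59 ± 0.914 (SD, n = 8), without overlap between the groups. Oas3 had a log2 fold change of 0.02 (SE 0.30), and its highest value, 8.05, was in vehicle-treated mouse 8. Oas2 was too low for the filter, with 0.270 to 0.720 in AIMD mice and 0.0606 to 0.505 in vehicle-treated mice. In a fit without the filter, in which 9.9% of 24279 genes were called higher, Oas2 had an adjusted p of 0.0113 from limma.

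Isg15 encodes a ubiquitin-like protein that is attached to other proteins, Usp18 is the protease that removes it and also dampens signalling at the type I interferon receptor, and Herc6 is the main ligase that attaches it in mice. The FPKM of Isg15, on chromosome 4 at 156199424-156200818, was 6.54, 20.7 and 32.9 in the lowest, median and highest AIMD mouse and 5.04, 6.95 and 14.4 in the vehicle-treated mice. In 5 of 7 AIMD mice it was above every vehicle-treated mouse, whereas AIMD mice 1 and 7 lay within the vehicle-treated range. Isg15 was higher in AIMD mice, with means of 20.2 ± 8.73 (SD, n = 7) and 8.42 ± 3.48 (SD, n = 8) and a log2 fold change of 1.16 (SE 0.29, adjusted p by limma = 0.00595).

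Usp18 ranged from 2.88 to 8.01 FPKM with a median of 3.96 in AIMD mice, and from 1.34 to 3.28 around 2.12 in vehicle-treated mice. Again 5 AIMD mice lay above all vehicle-treated mice. The difference was 0.96 as a log2 fold change (SE 0.22, adjusted p by limma = 0.00318). Herc6, at 2.28 ± 0.809 (SD, n = 7) and 1.48 ± 0.702 (SD, n = 8), was not called (log2 fold change 0.53, adjusted p by limma = 0.0832, and 0.0498 without vehicle-treated mouse 5).

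**Figure D2:**
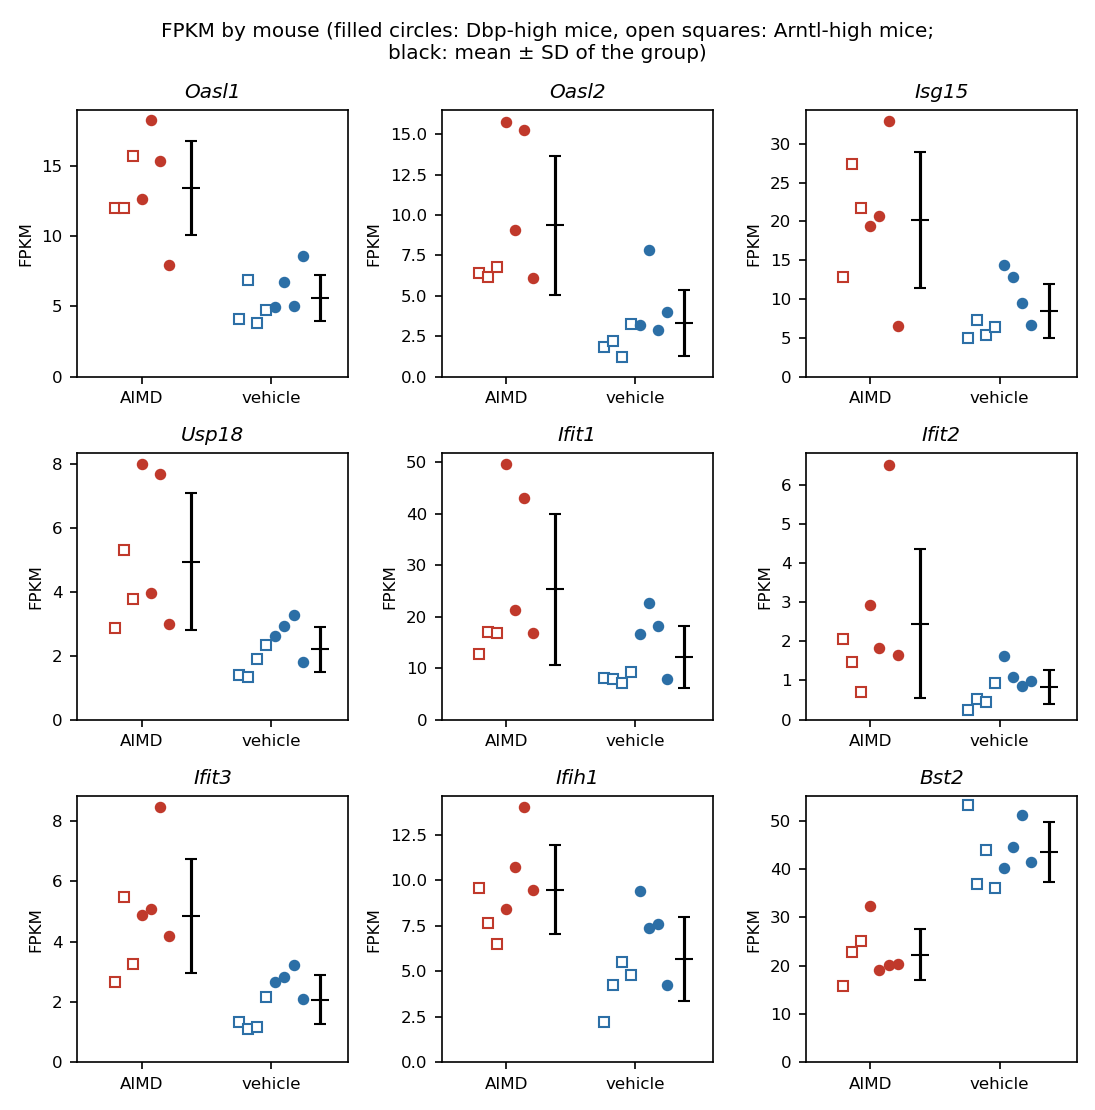
FPKM (y axis) of 9 interferon-induced genes in each of the 7 AIMD and 8 vehicle-treated mice, with mean ± SD of each group in black. Filled circles are mice with high Dbp and open squares mice with high Arntl, 2 genes of the circadian clock. Bst2 is the gene whose groups do not meet, while in Ifit1 and Oasl2 AIMD mice 4 and 6 stand well above the other AIMD mice.

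Among the antiviral effectors, 7 of the 14 tested genes were called higher and Bst2 lower. The 3 Ifit genes, whose proteins bind foreign RNA and block its translation, lie close together on chromosome 19, with Ifit2 at 34550694-34576419, Ifit3 at 34583531-34588731 and Ifit1 at 34640871-34650009. Ifit3 was 2.66, 4.89 and 8.46 FPKM in the lowest, median and highest AIMD mouse and 1.10, 2.13 and 3.24 in the vehicle-treated mice. In AIMD mice, 6 of 7 values exceeded all vehicle-treated values. Its log2 fold change was 1.05 (SE 0.23, adjusted p by limma = 0.0021), and 51.2% of its 50-base windows are shared with the copy Ifit3b.

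Ifit1 was the most abundant Ifit gene per length. It was 12.7, 17.0 and 49.6 FPKM in the lowest, median and highest AIMD mouse and 7.17, 8.66 and 22.7 in the vehicle-treated mice. AIMD mice 4 and 6, at 49.6 and 43.2, were the only AIMD mice above vehicle-treated mouse 6, while 5 vehicle-treated mice were below the lowest AIMD mouse. The log2 fold change was 0.98 (SE 0.31, adjusted p by limma = 0.0225). Without AIMD mouse 6, which had the highest value of its group in many of these genes, the adjusted p was 0.0544.

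Ifit2 was low, at 0.697 to 6.49 FPKM with a median of 1.82 in AIMD mice and 0.243 to 1.63 around a median of 0.897 with vehicle. AIMD mouse 6 had the 6.49, and the next AIMD mouse had 2.94. The log2 fold change was 1.00 (SE 0.30, adjusted p by limma = 0.0147). Ifit2 reached the filter in 7 AIMD mice but in 6 vehicle-treated mice, and so would not have passed on the vehicle-treated mice alone.

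The other 4 effectors called higher have mixed functions. Rtp4, a chaperone that helps receptors reach the cell surface, was 15.5 ± 6.06 with AIMD (SD, n = 7) against 8.14 ± 5.10 with vehicle (SD, n = 8), with a log2 fold change of 1.01 (SE 0.32, adjusted p by limma = 0.0199). Parp14, an ADP-ribosyltransferase, was 3.67 ± 1.19 (SD, n = 7) and 2.01 ± 0.629 (SD, n = 8), with a log2 fold change of 0.72 (SE 0.20, adjusted p by limma = 0.00891).

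Cmpk2, a mitochondrial nucleotide kinase, and Xaf1, which favours apoptosis, had log2 fold changes of 0.56 and 0.53 (adjusted p by limma = 0.0467 and 0.0289). Both calls depended on single mice. That of Cmpk2 was lost when any of AIMD mice 4 to 7, vehicle-treated mice 1 to 4 or vehicle-treated mouse 8 was left out (adjusted p by limma from 0.0624 to 0.107), and that of Xaf1 without AIMD mouse 4, 5 or 6 or vehicle-treated mouse 4 (0.0504 to 0.0682). Rsad2 (viperin), which inhibits viral replication and neighbours Cmpk2 on chromosome 12, was 2.63 ± 1.66 (SD, n = 7) and 2.06 ± 0.944 (SD, n = 8) and was not called (adjusted p by limma = 0.524).

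Bst2 (tetherin), a membrane protein that holds budding virus particles on the cell and also marks plasmacytoid dendritic cells, lies on the minus strand of chromosome 8 at 71534255-71537456. Its FPKM was 15.9, 20.5 and 32.4 in the lowest, median and highest AIMD mouse and 36.0, 42.8 and 53.2 in the vehicle-treated mice. Every AIMD mouse was below every vehicle-treated mouse. The means, 22.3 ± 5.30 (SD, n = 7) against 43.5 ± 6.19 (SD, n = 8), gave a log2 fold change of −0.97 (SE 0.14, adjusted p by limma = 7.3e-05). The two-sided exact permutation test gave p = 0.000155, which no split of 15 mice into 7 and 8 can go below. Siglech, a defining marker of plasmacytoid dendritic cells, was at most 0.176 FPKM in any mouse, too low to compare the groups. The part of these cells in the values of Bst2 was not tested.

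The other 6 tested effectors were not called. Trim30a, a tripartite motif protein, Isg20, an exonuclease that cuts RNA, and Rsad2 had positive log2 fold changes of 0.22 to 0.39. Samhd1, which hydrolyses the nucleotides needed for DNA synthesis, had −0.34 (adjusted p by limma = 0.0794, and 0.0176 without vehicle-treated mouse 5), and Ifi35 and Ifi27 had −0.27 and −0.15. Mx1, Mx2 and Ifi44 were too low for the filter. The Mx proteins are GTPases that block viruses, and in this mouse strain Mx1 is known to be defective. Mx1 was lower with AIMD, at 0.381 ± 0.157 FPKM (SD, n = 7) against 0.653 ± 0.308 with vehicle (SD, n = 8). Mx2 was 0.244 ± 0.111 (SD, n = 7) against 0.203 ± 0.154 (SD, n = 8). Neither was called by limma without the filter (adjusted p = 0.161 and 0.645). Ifi44 was 0.433 ± 0.179 FPKM with AIMD (SD, n = 7) against 0.113 ± 0.0808 with vehicle (SD, n = 8), with 5 AIMD mice above all vehicle-treated mice and an adjusted p of 0.00302 from limma without the filter. These values rest on few reads, 25 in the median AIMD mouse against 4 in the median vehicle-treated mouse.

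Of the sensors, only Ifih1 (MDA5), which binds long double-stranded RNA, was called. Its FPKM was 6.47, 9.47 and 14.0 in the lowest, median and highest AIMD mouse and 2.22, 5.16 and 9.40 in the vehicle-treated mice. In 4 AIMD mice it exceeded every vehicle-treated mouse. The log2 fold change was 0.75 (SE 0.23, adjusted p by limma = 0.0172). Ddx58 (RIG-I), which detects the ends of viral RNA, and Dhx58, a regulator of both, had log2 fold changes of −0.04 and −0.01. Eif2ak2 (PKR), a kinase that stops translation, was at 0.30 (adjusted p by limma = 0.0591), with 5 of 7 AIMD mice above all vehicle-treated mice, and its adjusted p was 0.0248, 0.0492 and 0.0379 without AIMD mouse 2, vehicle-treated mouse 4 and vehicle-treated mouse 8. Zbp1, a sensor of Z-form nucleic acid, was at 0.06, and its 12.6 FPKM in AIMD mouse 4 compared with at most 5.05 in the other AIMD mice.

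None of the 5 transcription factors was called. Stat2 and Irf9 are parts of the complex that binds the ISRE, Irf7 amplifies type I interferon, and Irf1 and Irf8 serve the gamma interferon response and myeloid cells. Their log2 fold changes were 0.30 for Stat2 (SE 0.15, adjusted p by limma = 0.119), 0.22 for Irf7, 0.09 for Irf9, 0.06 for Irf8 and −0.12 for Irf1. With a clock gene score as covariate, Stat2 was called higher at 0.28 (SE 0.095, adjusted p by limma = 0.0265), in a fit that called 22.7% of all tested genes higher. Irf7 and Irf1 were the most abundant of them, at 35.2 ± 10.6 and 29.9 ± 4.28 FPKM with AIMD (SD, n = 7) against 30.1 ± 9.02 and 33.7 ± 10.9 with vehicle (SD, n = 8).

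The GTPases guard against microbes inside cells. Irgm1 and Irgm2, which regulate the other immunity-related GTPases, were called higher by a small margin. Irgm1 was 8.06, 9.74 and 13.4 FPKM in the lowest, median and highest AIMD mouse and 5.13, 7.02 and 9.997 in the vehicle-treated mice, with a log2 fold change of 0.42 (SE 0.16, adjusted p by limma = 0.0461). Irgm2 was 3.91, 4.82 and 8.98 against 2.44, 3.88 and 5.36, with a log2 fold change of 0.54 (SE 0.19, adjusted p by limma = 0.0353). The groups overlapped in both genes. The call of Irgm1 was lost when any mouse but AIMD mice 2, 3 and 7 or vehicle-treated mice 5 and 6 was left out (adjusted p by limma from 0.0515 to 0.107), and that of Irgm2 without any of AIMD mice 4 to 6 or vehicle-treated mice 1 to 3 (0.0576 to 0.0844).

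Igtp, a partner of Irgm1 and Irgm2, was at −0.05 and Iigp1, an effector of the same family, at 0.28, both far from the threshold. The annotations of Igtp and Irgm2 overlap on the plus strand of chromosome 11 (58199556-58207591 and 58199618-58222782), and 11.8% of the 50-base windows of Igtp occur in Irgm2, so that these 2 values are uncertain. The guanylate-binding proteins Gbp2, Gbp3 and Gbp7 had log2 fold changes of 0.03, 0.24 and −0.11. Gbp6 was listed at 0 in 1 AIMD mouse and 4 vehicle-treated mice.

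**Figure D3:**
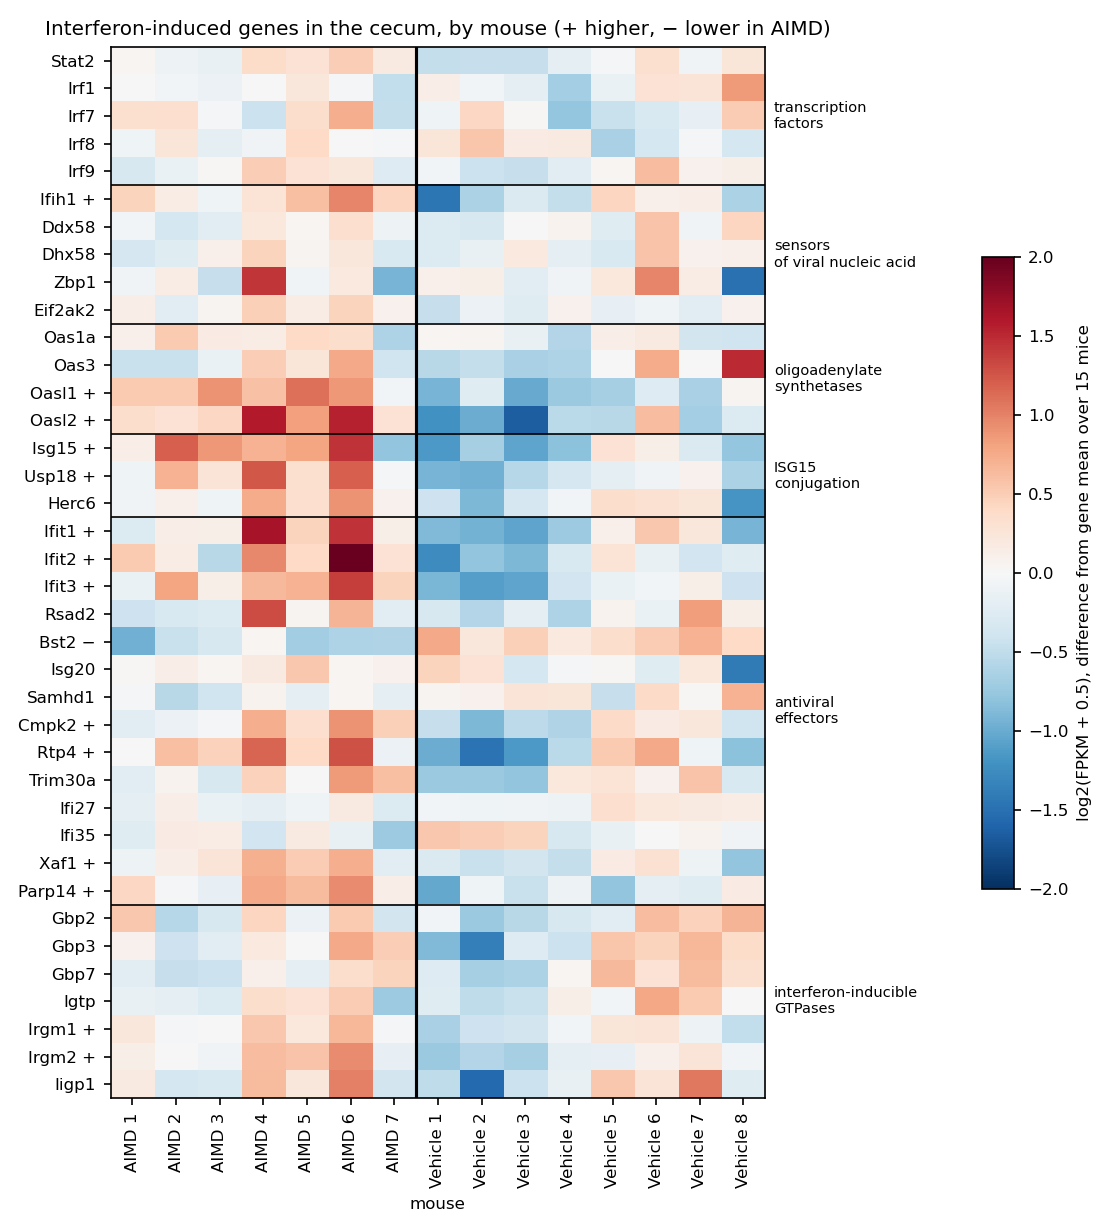
Each cell is the log2(FPKM + 0.5) of a tested interferon-induced gene in a mouse minus the mean of that gene over the 15 mice; genes are grouped by role, and + and − mark genes called higher or lower in AIMD mice. AIMD mouse 6 is the darkest column and has the highest value of its group in 20 of 38 genes.

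Many of the genes were high in the same mice. AIMD mouse 6 had the highest value among AIMD mice in 20 of the 38 tested genes and in 10 of the 14 called higher, and AIMD mouse 4 in 10 of the 38. AIMD mouse 7 had the lowest value in 14 of the 38. Among vehicle-treated mice, mouse 6 was the highest in 12. With the mean of each group taken out, the median correlation over the 15 mice between any pair of the 38 genes was 0.43 (703 pairs), and between pairs of the 14 called higher it was 0.66, with all 91 pairs positive. With the means of the clock sets described below taken out as well, these medians were 0.24 and 0.51, and 85 of the 91 pairs were positive. Between a gene called higher and any other tested gene it was −0.02. These correlations share the libraries, their depth and their scaling, and are given as a description.

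Some genes that were not called still followed the mice in which the called genes were high. The correlation with the median of the genes called higher, again over 15 mice with group means removed, was 0.85 for Igtp, 0.82 for Herc6, 0.81 for Iigp1, 0.76 for Stat2 and 0.76 for Irf9. With the means of the clock sets taken out too, it was 0.75 for Igtp, 0.78 for Herc6 and 0.66 for Iigp1, but 0.38 for Stat2 and 0.49 for Irf9. Others did not follow it, with 0.18 for Bst2, −0.09 for Irf7, −0.33 for Ifi35 and −0.41 for Irf8. With the means of the clock sets taken out, these were 0.06, −0.05, 0.05 and −0.11.

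Clock genes divided the mice within each group. Arntl and Dbp are clock genes that peak at opposite times of day, and a score of 14 clock genes divided each group at its largest gap, with AIMD mice 1 to 3 and vehicle-treated mice 1 to 4 high in Arntl and the others high in Dbp. The score lies between −2.49 and −1.85 in the Arntl-high mice and between −0.205 and 0.858 in the Dbp-high mice. These 2 sets were found in the data and are not given in the labels. The authors fitted time of sacrifice, and whether the sets match it is not known here. In vehicle-treated mice, 34 of 38 tested interferon-induced genes had a higher mean in the 4 Dbp-high mice than in the 4 Arntl-high mice, with a median difference of 0.51 on the log2 scale. Over all tested genes the median difference was −0.03, and 5633 of 11983 were higher.

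In 9 of the 38 (23.7%), every Dbp-high vehicle-treated mouse was above every Arntl-high one, against 6.52% of all tested genes. These 9 were Stat2, Irf9, Oas3, Rsad2, Cmpk2, Ifi27, Gbp3, Gbp7 and Irgm2. Irf8 was the only one of the 38 in which the order was the other way round (2.63%, against 7.49% of all tested genes). In AIMD mice, 31 of 38 had a higher mean in the Dbp-high mice, with a median difference of 0.33. Over all tested genes, 5587 of 11983 did, with a median difference of −0.03. Stat2, Rsad2, Cmpk2 and Gbp7 were separated again in AIMD mice (10.5%, against 7.41% of all tested genes). Cmpk2, for example, was 2.73 to 3.87 FPKM in Arntl-high and 4.07 to 7.39 in Dbp-high vehicle-treated mice, and 4.74 to 5.45 and 7.13 to 10.7 in the AIMD mice. Among vehicle-treated mice, the Dbp-high set had 4379971 to 9756430 reads on genes and the Arntl-high set 7556868 to 14446329. Mitochondrial genes took 15.3% to 26.1% of the reads in the Dbp-high and 6.90% to 16.1% in the Arntl-high vehicle-treated mice. Time of day and other features that differ between the 2 sets cannot be told apart here.

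**Figure D4:**
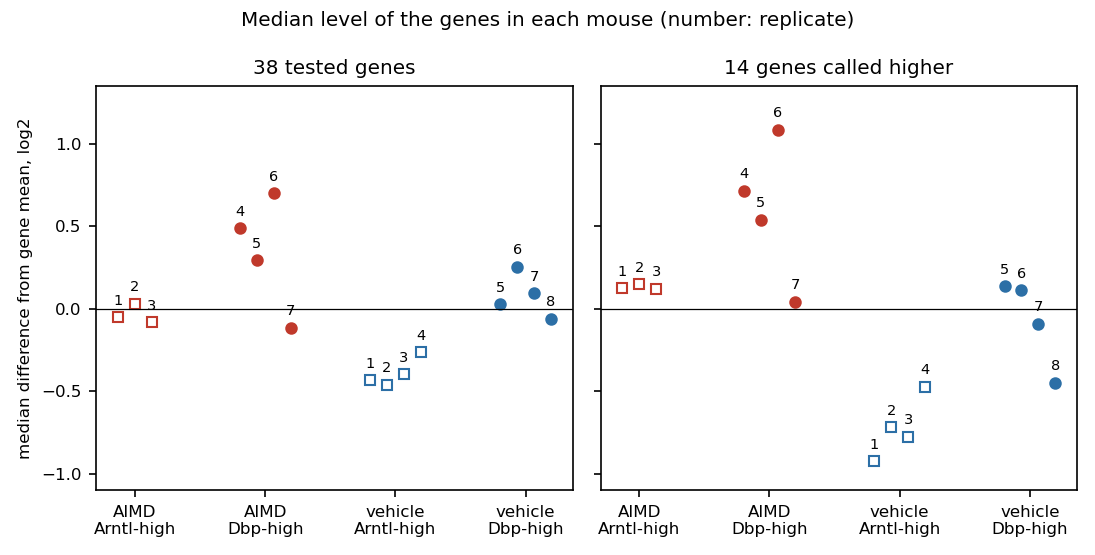
Median over genes of the log2 difference from the gene mean (y axis) in each mouse, for the 38 tested genes (left) and for the 14 called higher in AIMD mice (right), by group and clock set; numbers are replicate numbers. The 4 Arntl-high vehicle-treated mice are the lowest, between −0.46 and −0.27 over the 38 genes, and AIMD mouse 6, at 0.70, is the highest; the right panel shows genes chosen by this contrast.

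The groups were also compared within each set of mice. Within the Arntl-high mice (3 AIMD and 4 vehicle-treated), 7 of the 38 were called higher, where 7.6% of all tested genes were, and Bst2 was called lower, as were 5.68% of all tested genes. Within the Dbp-high mice (4 and 4), 8 were called higher, where 16.3% of all tested genes were, and Bst2 was called lower again, as were 13.6%. Oasl1, Oasl2, Usp18 and Ifit3 were called in both sets, Ifih1, Isg15 and Rtp4 among the Arntl-high mice, and Ifit1, Ifit2, Cmpk2 and Parp14 among the Dbp-high mice.

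A different difference in the 2 sets was not shown for any gene. The interaction of treatment and clock set had an adjusted p under 0.05 in 0 of 11983 genes by limma, while 536 genes (4.47%) passed that threshold before adjustment. Irf8 was the only one of the 43 among the 536, with an adjusted p by limma of 0.971. Isg15 had log2 fold changes of 1.65 in the Arntl-high and 0.70 in the Dbp-high mice, and its interaction had an adjusted p by limma of 0.993.

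Signals upstream of these genes were described from lists that hold the ligands, the receptors and their kinases. Of 21 interferon genes, 18 were listed at 0 in every mouse, and Ifng, Ifnk and Ifnz were at most 0.224 FPKM in any mouse, so that their differences were not detectable at this depth. Ifngr2, a chain of the gamma interferon receptor, was the 1 receptor gene of 6 called, at 128 ± 29.0 (SD, n = 7) and 180 ± 38.0 (SD, n = 8), with a log2 fold change of −0.49 (adjusted p by limma = 0.0234). Ifnar1, a chain of the type I receptor, was at 0.36 (adjusted p by limma = 0.0526), and the lambda receptor Ifnlr1, at 0.07, was far from the threshold.

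Of the 3 receptor kinases, Jak2 and Jak1 were called higher and Tyk2 lower. Jak2 and Jak1 had log2 fold changes of 0.81 and 0.64, and Jak1 did not overlap between the groups. Tyk2, the kinase of the type I and type III receptors, had −0.29 (adjusted p by limma = 0.025), also without overlap.

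Inhibitors of the pathway were called in 6 of 10 cases, beside 36.1% of all tested genes. Socs3, Ptpn11, Pias4, Ptpn1 and Pias3 were called higher, by 0.37 to 0.61 on the log2 scale. Socs1, a brake on the receptor kinases, was lower by a log2 fold change of −0.62 (adjusted p by limma = 0.0074). Socs1 was low, at 0.375 to 1.34 FPKM in AIMD mice and 0.970 to 2.25 in vehicle-treated mice, and rested on 8 to 31 recovered reads per mouse. Among 14 tested genes that sense microbes upstream of interferon, 3 were called higher (Tbk1, a kinase that activates Irf3, Ticam1 and Traf6) and 3 lower (Traf3, Irf5 and Unc93b1, which carries nucleic acid receptors to endosomes). These shares, 21.4% each, lie near the 19.4% and 16.7% of all tested genes. Unc93b1, with a log2 fold change of −0.81, was 3.71 ± 0.726 (SD, n = 7) and 7.20 ± 2.54 FPKM (SD, n = 8).

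Another list held 65 interferon-induced genes outside the 43, and 47 of them were tested. Of these, 9 were called higher (19.1%, beside 19.4% of all tested genes) and 5 lower (10.6%, beside 16.7%), and the median log2 fold change was −0.08. Oas1g, at 1.45, Ddx60, a helicase that helps RNA sensing, at 1.00, Mitd1 at 0.87, Tdrd7 at 0.70, Lgals3bp at 0.63, Ifit3b at 0.61, Nmi at 0.56, Adar at 0.46 and Tor1aip1 at 0.39 were higher. Ifi27l2a, at −1.16, was lower, from 35.6 ± 11.4 (SD, n = 8) in vehicle-treated mice to 15.5 ± 4.88 FPKM (SD, n = 7) in AIMD mice. Gbp4, Trim12c, Helz2 and Psme2 were lower too, by log2 fold changes of −0.62 to −0.43.

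**Figure D5:**
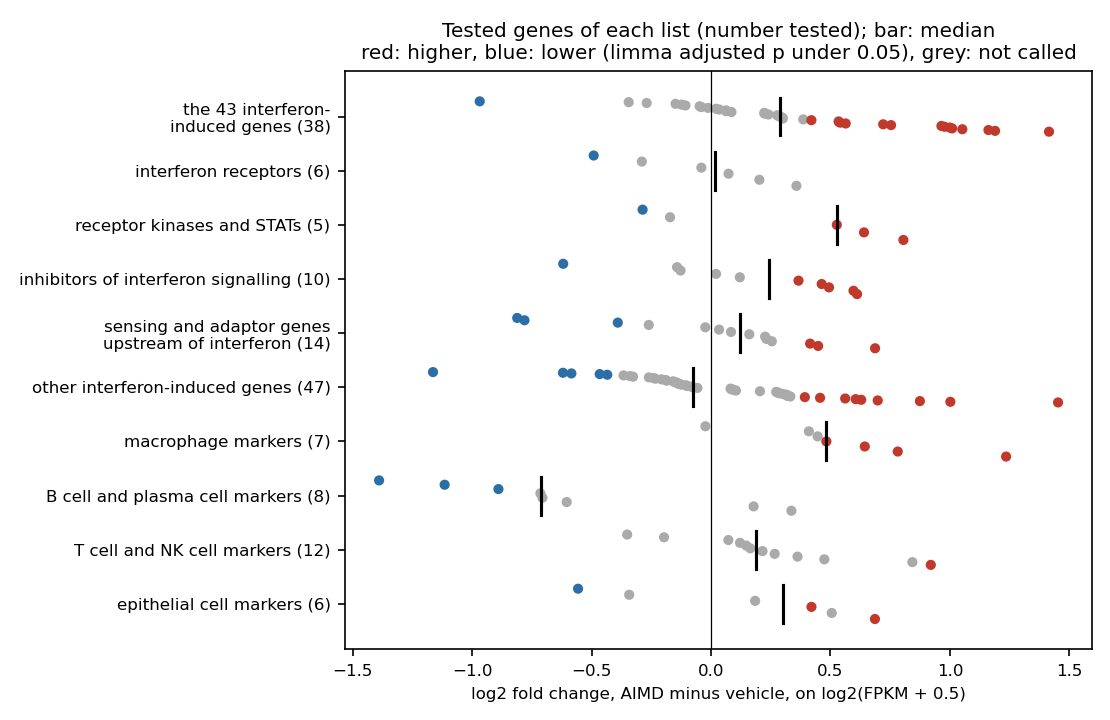
Log2 fold change (AIMD minus vehicle-treated mice, x axis) of each tested gene of the 43, of the lists around the interferon pathway and of cell type markers; each point is a gene, the bar is the median of the list, and the number in parentheses is the number of genes tested. The median is 0.29 for the 43 genes and −0.08 for the other interferon-induced genes.

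Markers of immune cells moved with the groups too. Of 7 tested macrophage markers, 4 were called higher in AIMD mice (Lyz2, Csf1r, C1qa and Cd68), and the summed FPKM of the list was 80.5 to 244 in AIMD mice and 60.6 to 92.9 in vehicle-treated mice. The sum was highest in AIMD mouse 7, where Lyz2 alone was 207.5 of the 244. Csf1r, C1qa, C1qb, Adgre1 and Fcgr1 were highest among AIMD mice in mouse 6. That mouse had the highest value of its group in 20 of the 38 interferon-induced genes. The other markers of the list did not peak there. Cd68 was highest in AIMD mouse 4 (2.39 FPKM, against 1.51 in mouse 6) and Cd14 in AIMD mouse 1 (13.5, against 8.13 in mouse 6). The B cell and plasma cell markers Cd79b and Mzb1 were called lower (summed FPKM of their list 305 to 888 and 321 to 712), and of 12 T cell and NK cell markers Nkg7 was higher (18.9 to 45.9 and 18.8 to 35.8). The neutrophil gene Ly6g reached 24.7 FPKM in AIMD mouse 4, against at most 2.39 in the other AIMD mice. S100a8, S100a9 and Retnlg were highest in AIMD mouse 4 too, at 2.42, 2.53 and 0.395 FPKM. Csf3r was not (0.0998 there, against 0.162 in AIMD mouse 2), and Mpo was at 0 in 14 mice.

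The labelled tissue showed in the epithelial markers, whose summed FPKM was 3944 to 6429 in AIMD mice and 3263 to 5206 in vehicle-treated mice, with Krt8 and Vil1 called higher and Krt18 lower. The summed smooth muscle and stromal markers were 70.6 to 278 in AIMD mice and 151 to 1083 in vehicle-treated mice, with the highest sum in vehicle-treated mouse 8, which also had the highest Oas3. Of the 7 tested markers of that list, 1 was called higher in AIMD mice and 0 lower, while 5 log2 fold changes were negative and 2 positive. The part of these cell types in the values of the interferon-induced genes was not tested.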

How the data were processed

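Cecal RNA of 7 AIMD and 8 vehicle-treated mice was sequenced with 50-base single reads from stranded poly-A libraries. Reads were mapped to GRCm38 by the authors with STAR and counted with featureCounts on GENCODE genes. The authors deposited FPKM by gene symbol and mouse, not pooled, and fitted treatment and time of sacrifice for their own tests. Tool versions and the step from counts to FPKM are not given in the sources used here. Groups and replicate numbers came from the sample labels. The p-values set differences against the variation between these mice, which were taken as independent. The authors housed several mice to a cage, and shared cages could not be allowed for.

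The deposited FPKM were whole multiples of 1 read (tolerance 0.02) for 24273 of 24279 genes above 0 (99.975%), with the exon length of GENCODE M21 for 68.1% of them and with other lengths for the remainder. These recovered reads gave the depth. From the 45808 gene rows, 4 with a repeated symbol were left out. Each mouse was scaled by its median-of-ratios size factor over 13594 genes (1.01 in every mouse, so that the deposited values already held this scaling), 0.5 was added and log2 taken. The filter kept genes that reached FPKM 0.5 in 7 or more mice. The fit used limma 3.58.1 in R 4.3.3 (lmFit, then eBayes with trend), two-sided, with Benjamini-Hochberg adjustment over all genes kept and a threshold of 0.05. The log2(FPKM + 0.5) scale makes changes of low genes look smaller. Other steps used Python 3.11.15, numpy 2.4.6, pandas 2.3.3 and matplotlib 3.10.9. The fits were tested on simulated data.

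The 43 genes, their roles, the other lists and the rule were chosen with earlier results of these data known. Every one of the 43 could be named, with full values for called genes, and genes of other lists where they were called or their list was described. The list genes Ifit1bl1, Ifit1bl2 and Parp13 had no row under these symbols. Some results on genes of the other lists are not reported here. Alternatives were other pseudocounts (0.1 and 1), no filter and a filter at FPKM 1, no further scaling, quantile normalization, limma voom on the recovered reads, an exact rank-sum test, a clock gene covariate, a replicate block and each mouse left out in turn. Fits within the clock sets were added after the data were seen. Shared 50-base windows were counted over GENCODE M21 transcripts, which also gave the gene positions on GRCm38. Promoter windows are those of RefSeq.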

Additional observations from a re-analysis of the deposited data

Results flagged for a closer look

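A single mouse was checked against the rest of its group 76 times, 2 for each tested gene. By Dixon's criterion 7 values stood apart, all of them the highest of their group. Its rate of about 1 in 20 holds for independent, normally distributed values. The checks used FPKM without log2, and many of these genes were high in the same mice, so that this rate need not apply here. In AIMD mice, Zbp1 was 12.6 FPKM in mouse 4 (next 5.05), Ifit2 was 6.49 in mouse 6 (next 2.94) and Isg20 was 8.77 in mouse 5 (next 6.71). In vehicle-treated mice, Irf9 was 10.8 in mouse 6 (next 7.55), Oasl2 was 7.83 in mouse 6 (next 3.98), Oas3 was 8.05 in mouse 8 (next 4.56) and Rsad2 was 4.16 in mouse 7 (next 2.32).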

How the results depend on the processing

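Among the 15 called genes, 10 kept their call under all 9 alternative limma fits and with each of the 15 mice left out. The exceptions were Ifit1, Cmpk2, Xaf1, Irgm1 and Irgm2. The exact rank-sum test, which is not in this count, called none of these exceptions. It did not call Rtp4 either (adjusted p by the rank-sum test = 0.0941), but called Eif2ak2 higher (0.0431). The count called higher was 14 with pseudocounts of 0.1 or 1, a filter at FPKM 1, no further scaling or limma voom, 11 without a filter (9 of the 14, with Ifit1, Cmpk2, Xaf1, Irgm1 and Irgm2 lost, plus Oas2 and Ifi44, which the filter had left out), 12 with quantile normalization, 16 with the clock gene covariate (Stat2 and Eif2ak2 added) and 9 with the exact rank-sum test. Within the Arntl-high mice it was 7 and within the Dbp-high mice 8, with fewer mice. The count called lower was 1, except for 2 with quantile normalization, where Samhd1 was added at −0.40. For the other pseudocounts, the filter at FPKM 1, no further scaling and quantile normalization, the shares of all tested genes called are not reported here. These counts therefore cannot be set beside the whole table. With each mouse left out, the count called higher was 9 (without AIMD mouse 6) to 15, that called lower 1 to 2 (without vehicle-treated mouse 5), and that of genes without overlap 1 to 2. Over the whole table, 4320 genes were called, 3506 to 4616 with a mouse left out, and 1592 within the Arntl-high mice, of which 911 were higher and 681 lower.

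Directions that turned belonged to genes that were not called. Zbp1 was −0.026 with limma voom, and Oas3 was −0.0076 with quantile normalization and −0.022 with the clock gene covariate. With a mouse left out, log2 fold changes ran from −0.025 to 0.15 for Irf8, −0.098 to 0.039 for Ddx58, −0.082 to 0.067 for Dhx58, −0.16 to 0.22 for Zbp1, −0.10 to 0.24 for Oas3, −0.070 to 0.14 for Gbp2 and −0.13 to 0.070 for Igtp. The cause was not tested.

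The replicate numbers were not taken as pairs, since deviations of same-numbered mice correlated at −0.35 to 0.43. In 6 of 7 same-numbered pairs both mice were in the same clock set, so that the block partly stands for that set. With the replicate number as a block over replicates 1 to 7, 16 genes were called higher and 1 lower, no call was lost, Stat2 and Eif2ak2 were added at log2 fold changes of 0.36 and 0.33, and Ddx58, Dhx58 and Zbp1 turned to 0.017, 0.0018 and −0.15. The share of all tested genes called in the block fit is not reported here, so a rise over the whole table cannot be told from one in these genes. Depth limits Oas2, Mx1, Mx2, Ifi44, Gbp6 and the interferon genes most.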
